A study of Mus musculus with 6 samples.

Results

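The MHC class I antigen presentation pathway was followed in sorted kidney cells through 8 genes that were chosen by name. They are the heavy chains H2-K1, H2-D1 and H2-T23, the light chain B2m, the peptide transporter subunits Tap1 and Tap2, the loading chaperone Tapbp and the peptidase Erap1. Of these 8 genes, 7 have a row among the 12125 genes of the deposited expression table, and Tap1 has none. The cells came from kidneys of Trf1+/+ and Trf1flox/flox mice, with 3 libraries of 500 cells for each genotype, and the comparison asks how cells that lose Trf1 differ. TRF1 is a protein that binds and protects the ends of chromosomes, and its gene is Terf1. All mice, controls included, carried the Col1a2-CreERT2 driver and the KFP reporter (KFP+/t Cre+/t), and all received tamoxifen intraperitoneally 3 times a week for 8 weeks, starting at 6 to 8 weeks of age, in both sexes. Cre was driven by the promoter of Col1a2, a collagen gene of fibroblasts, and the cells were sorted by CD29, a surface integrin, and KFP, a red fluorescent protein switched on by Cre. The study counts its RNA-seq replicates in mice, so that the spread between libraries of a group is that between animals together with the technical spread.

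MHC class I molecules show fragments of a cell's own proteins to CD8 T cells and natural killer cells. The proteasome cuts proteins into peptides, the transporter TAP carries the peptides into the endoplasmic reticulum, ERAP1 trims them, and tapasin, calreticulin and ERp57 help load them onto a heavy chain that is paired with β2-microglobulin. Nearly all nucleated cells make class I molecules, and interferons are known to raise most genes of the pathway, in part through the transactivator NLRC5.

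Sequence near the RefSeq start of 3 members is shown because the class I genes are textbook cases of a shared promoter layout, with an NF-κB element next to an interferon response element, followed by further elements close to the start. A promoter entry was found in RefSeq (GRCm38.p6) for 7 of the 8 members, all but Tap2. The 180 bases before the start of H2-K1 lie at chr17:34000348-34000527 on the minus strand, and the 179 bases upstream of B2m lie at chr2:122147507-122147685 on the plus strand. The capitals mark, on either strand, GGGGATTCC (the κB form), GAAANNGAA or GAANNGAAA (the interferon response form), TGACG and CCAAT.

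H2-K1 upstream: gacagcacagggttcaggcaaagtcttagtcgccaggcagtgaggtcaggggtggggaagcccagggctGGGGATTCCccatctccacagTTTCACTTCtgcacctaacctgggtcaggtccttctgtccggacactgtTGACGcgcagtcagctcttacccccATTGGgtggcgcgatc
B2m upstream: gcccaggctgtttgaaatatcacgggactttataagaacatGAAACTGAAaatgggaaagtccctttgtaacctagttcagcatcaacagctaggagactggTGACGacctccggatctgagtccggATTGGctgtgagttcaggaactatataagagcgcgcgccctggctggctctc

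The 30 bases from the κB form to the interferon response form are set side by side for the 2 classical heavy chains, H2-K1 (chr17:34000429-34000458, minus strand) and H2-D1 (chr17:35262923-35262952, plus strand). The H2-D1 stretch lies before the RefSeq start of that gene, but inside an exon of H2-D1 as annotated by GENCODE vM21, whose start is farther upstream, whereas the H2-K1 stretch lies outside annotated exons.

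H2-K1 core: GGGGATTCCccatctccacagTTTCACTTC
H2-D1 core: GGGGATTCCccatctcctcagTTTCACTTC

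These stretches are identical at 29 of 30 bases, and the sequences before both RefSeq starts are identical at 166 of 190 bases (87.4%) when aligned at the κB form. The exact κB form GGGGATTCC was found in 2 of the 7 members' promoters, those of H2-K1 and H2-D1, and in 82 of all 32817 promoters (0.25%). Other κB sequences were not searched for, so its absence does not show that a promoter, such as that of B2m, lacks a κB element. An interferon response form was found in 5 of the 7 members. GAAANNGAA was present in 8.55% and GAANNGAAA in 7.52% of all promoters. The share of all promoters with either form was not computed, so the 5 of 7 has no like share beside it. TGACG and CCAAT are short and common, in 20.8% and 37.4% of all promoters. A match describes letters only, and no binding was measured here.

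Most of the pathway sits together in the genome. On chromosome 17 (GENCODE vM21, GRCm38) the order is Tapbp (33915899 to 33929292), H2-K1 (33996017 to 34000347), Psmb9, Tap1, Psmb8, Tap2 (34203527 to 34216321), H2-D1 (35262730 to 35267499) and H2-T23 (36029773 to 36032855). B2m lies on chromosome 2 (122147686 to 122153083) and Erap1 on chromosome 13 (74639568 to 74693201).

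Values are normalized counts, which are reads scaled with 1 size factor for the whole library. The libraries held 10263382 to 12248797 reads on the listed genes, and 1 read was worth 0.689 to 1.09 normalized counts. The library labelled Trf1+/+ replicate 1 stood apart. Its median normalized count was 13.4, and 12.9% of the genes that averaged at least 100 normalized counts elsewhere were at 0 in it. That share was 9.01% in Trf1flox/flox replicate 2 and 0.932% to 3.68% in each of the other 4 libraries. The library labelled Trf1+/+ replicate 1 had 0.891 normalized counts (1 read) of Terf1, against 253 and 235 in the other Trf1+/+ libraries and 110.0, 7.65 and 12.4 in the Trf1flox/flox libraries, which goes against the label it carries. Trf1flox/flox replicate 1, at 110.0, kept more Terf1 than the other Trf1flox/flox libraries. Groups were kept as labelled, and results that rest on the library labelled Trf1+/+ replicate 1 are also given without it, except Pearson's r between genes.

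The labelled cell type was checked against marker genes. Of 12 fibroblast markers 3 are listed, with sums of 1.66 to 105 normalized counts in Trf1+/+ and 15.5 to 102 in Trf1flox/flox libraries. Col1a1, Pdgfra and Pdgfrb have no row, and Col1a2 had at most 2 reads in any library. All 12 proximal tubule markers are listed, with sums of 37072 to 159909 in Trf1+/+ and 40080 to 173134 in Trf1flox/flox libraries, and all 8 markers of the loop and distal tubule summed to 59006 to 165414. The data therefore go against the fibroblast label, and the cells are called sorted kidney cells here. Of 12 leukocyte and macrophage markers 5 are listed, with sums of 0 to 950.4 in Trf1+/+ and 13.1 to 262 in Trf1flox/flox libraries, and C1qb was at 0 in all 6. Of 9 T and NK cell markers only Trac, the constant region of the T cell receptor alpha chain, is listed. It was at 0 in every Trf1+/+ library and at 172, 216 and 61.3 in the Trf1flox/flox libraries (log2 difference 7.05, SE 0.84, adjusted p = 0.110 from limma and 0.00692 from DESeq2). Only Pecam1 of 10 endothelial markers is listed, at 12.0 normalized counts or fewer.

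**Figure D1:**
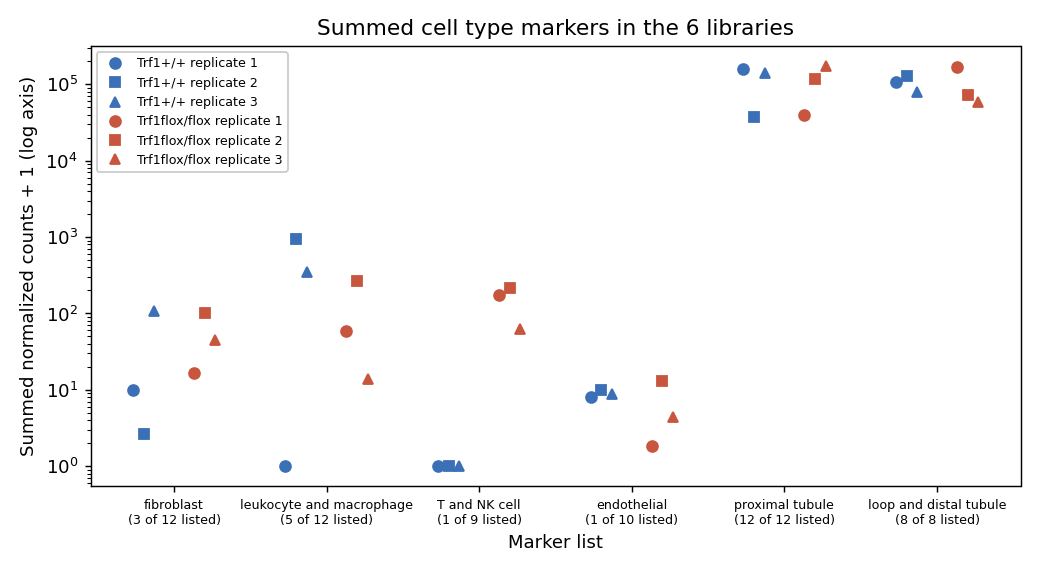
Summed normalized counts of each marker list (log axis, sum plus 1) in the 3 Trf1+/+ and 3 Trf1flox/flox libraries, 1 point per library. Tubule markers reach 37072 or more in every library, whereas the fibroblast markers that are listed stay at or below 105.

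H2-K1 and H2-T23 were the members whose values did not overlap between the groups, with all 3 Trf1flox/flox libraries above all 3 Trf1+/+ libraries. Over the 9966 genes that passed the filter on low values (10 or more normalized counts in 3 or more libraries), groups did not overlap with Trf1flox/flox higher for 533 genes (5.35%) and with Trf1flox/flox lower for 332 (3.33%). Of the 6 members tested, 2 were of the first kind and 0 of the second. No member passed limma's test at an adjusted p under 0.05, and nor did any of the 9966 genes (0%), while 454 genes (4.56%) had an unadjusted p under 0.05, among them 1 member. Of these 454 genes, 353 (3.54% of the genes tested) were higher in Trf1flox/flox libraries, H2-T23 among them. In these bulk libraries, more cells of a type and more RNA per cell cannot be told apart.

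H2-K1 encodes the classical heavy chain H-2K, which presents peptides to CD8 T cells. It had 108, 567 and 460 normalized counts across the Trf1+/+ libraries, against 830.0, 1118 and 944 in Trf1flox/flox libraries. The lowest value was that of the library labelled Trf1+/+ replicate 1, and the highest Trf1+/+ value lay below the lowest Trf1flox/flox value. The mean of 964 ± 145 (SD, n = 3) in Trf1flox/flox was 2.55 times the 378 ± 240.2 (SD, n = 3) of Trf1+/+. Without the library labelled Trf1+/+ replicate 1 the ratio was 1.88 and the groups still did not overlap. On the scale of log2(normalized count + 1) the difference was 1.65 (SE 0.94, 95% interval -0.64 to 3.94, adjusted p = 0.996 from limma). The exact two-sided permutation test gave p = 0.1, the smallest value that 3 libraries against 3 allow. Ranked within each library, H2-K1 had percentiles among all listed genes of 59.6, 81.3 and 79.0 in Trf1+/+ and of 88.3, 90.3 and 90.4 in Trf1flox/flox libraries, again without overlap. Trac, the listed T cell marker, separated the groups in the same direction, and its part in this result was not tested.

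H2-T23 encodes Qa-1, a non-classical heavy chain that presents a conserved signal peptide to NKG2A receptors on natural killer cells. It had few reads, with 7.13, 36.5 and 0.985 normalized counts across the Trf1+/+ libraries (8, 44 and 1 reads), against 47.3, 170.5 and 156 in Trf1flox/flox libraries (55, 156 and 227 reads). Every Trf1flox/flox value lay above every Trf1+/+ value, although 47.3 and 36.5 are close. On average this was 14.9 ± 18.96 (SD, n = 3) in Trf1+/+ against 125 ± 67.5 (SD, n = 3) in Trf1flox/flox. The difference of 3.69 on the log2 scale (SE 1.31, 95% interval 0.51 to 6.88) had an unadjusted p of 0.0296 and an adjusted p of 0.955 from limma. The exact permutation p was 0.1. Ranked within each library, the groups overlapped, with percentiles of 47.6, 37.3 and 11.9 against 33.3, 54.9 and 56.7.

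H2-D1 encodes the second classical heavy chain of these mice, H-2D. It had 1269, 302 and 446 normalized counts across the Trf1+/+ libraries, against 780.2, 1699 and 777 in Trf1flox/flox libraries. The groups overlapped because of the library labelled Trf1+/+ replicate 1, which held the second highest value. The Trf1+/+ mean was 673 ± 522 (SD, n = 3) and the Trf1flox/flox mean 1085 ± 532 (SD, n = 3), a log2 difference of 0.86 (SE 0.92, adjusted p = 0.996 from limma). The exact permutation p was 0.3. Without the library labelled Trf1+/+ replicate 1, the Trf1flox/flox mean was 2.90 times the Trf1+/+ mean and all Trf1flox/flox libraries lay above the 2 that were left. In that comparison 3 members (H2-K1, H2-D1 and H2-T23) did not overlap with Trf1flox/flox higher, against 912 of all tested genes (9.15%).

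**Figure D2:**
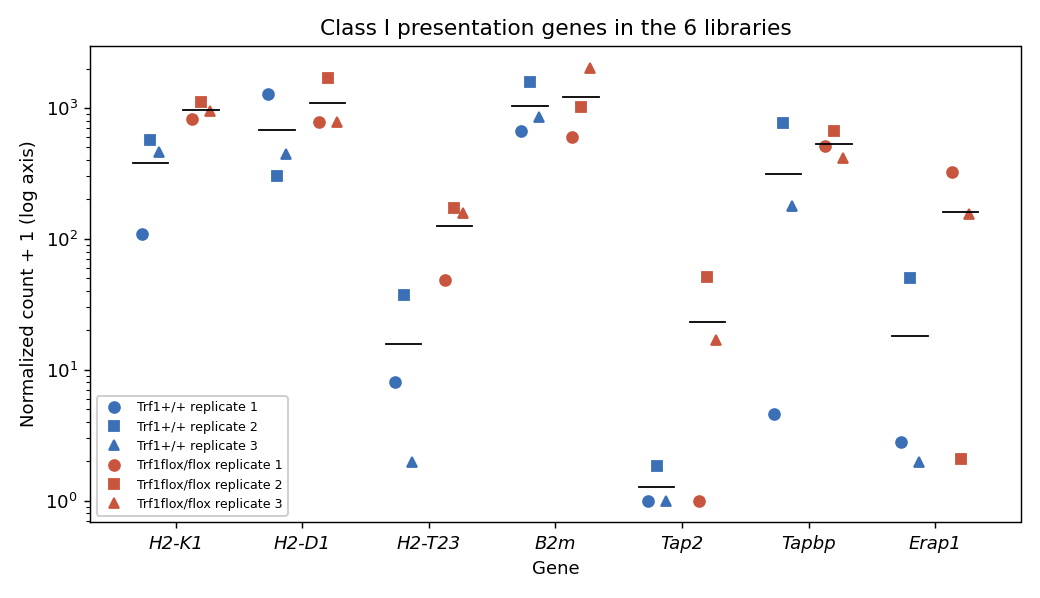
Normalized counts (log axis, value plus 1) of the 7 listed members in each library, with 1 point per library and a line at the mean of each group. H2-K1 and H2-T23 show no overlap between the 3 Trf1+/+ and 3 Trf1flox/flox points, the Trf1+/+ points of B2m lie between its Trf1flox/flox points, and Tapbp ranges from 3.56 to 761 within Trf1+/+.

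The heavy chains were also compared with each other, per kilobase of exon. H2-K1 reached 0.0745, 1.64 and 0.905 times the level of H2-D1 in Trf1+/+ libraries and 0.934, 0.577 and 1.07 times in Trf1flox/flox libraries. The library labelled Trf1+/+ replicate 1 was the exception, where H2-K1 made up 6.90% of the 3 heavy chains and H2-D1 made up 92.6%. In the other 5 libraries H2-K1 made up 34.6% to 59.8%. Summed over the 3 heavy chains, the level was 531, 323 and 330.0 normalized counts per kb in Trf1+/+ libraries and 601, 1098 and 677 in Trf1flox/flox libraries, and the groups did not overlap. H2-K1 and H2-D1 supplied most of this sum in every library. Of the 50-base stretches in the annotated transcripts of H2-K1, H2-D1 and H2-T23, 9.63%, 12.8% and 13.6% also occur in at least 1 other annotated gene, so that some reads of these genes may have been assigned to another gene or left uncounted.

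**Figure D3:**
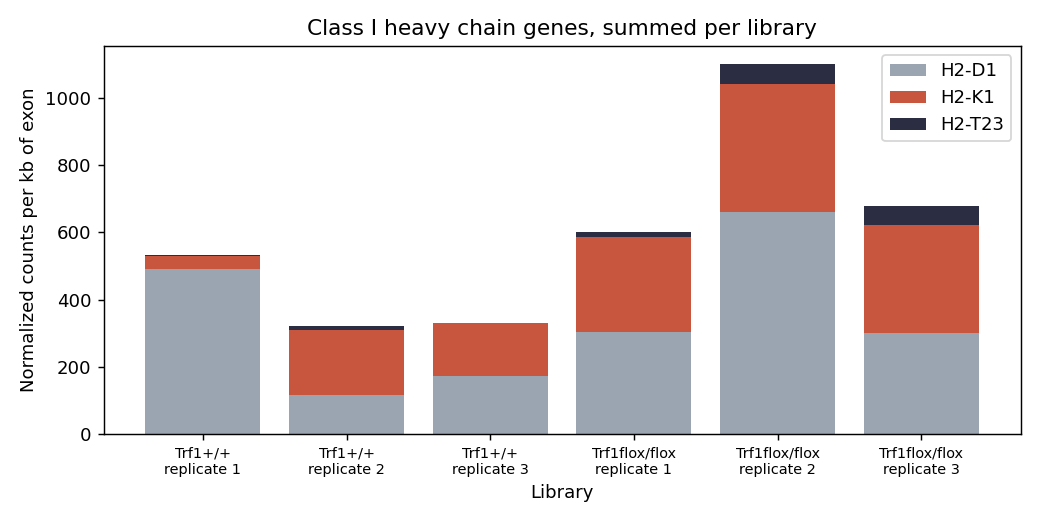
Normalized counts per kb of exon of H2-K1, H2-D1 and H2-T23 stacked for each of the 6 libraries. The summed height is 323 to 531 in Trf1+/+ and 601 to 1098 in Trf1flox/flox libraries, and the library labelled Trf1+/+ replicate 1 consists almost wholly of H2-D1.

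B2m encodes β2-microglobulin, the light chain that every class I heavy chain needs to reach the cell surface. Its values were 667, 1593 and 847 normalized counts across the Trf1+/+ libraries, against 601, 1013 and 2036 in Trf1flox/flox libraries. Both the lowest and the highest value were those of Trf1flox/flox libraries, so that the Trf1+/+ range lay inside the Trf1flox/flox range. The Trf1+/+ mean of 1036 ± 491 (SD, n = 3) and the Trf1flox/flox mean of 1217 ± 739 (SD, n = 3) lay within each other's SD, with a log2 difference of 0.15 (SE 0.88, 95% interval -1.98 to 2.29, adjusted p = 0.996 from limma). The exact permutation p was 0.8. The sign turned when 1 library was left out, to -0.11 without the library labelled Trf1+/+ replicate 1 and to -0.31 without Trf1flox/flox replicate 3. No 50-base stretch of B2m occurs in another gene. Per kb of exon, the summed heavy chains reached 0.685, 0.174 and 0.335 times the level of B2m in Trf1+/+ libraries and 0.861, 0.932 and 0.286 times in Trf1flox/flox libraries, and these ranges overlapped.

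The genes of peptide transport, trimming and loading were low or uneven. Tap2 encodes the second subunit of the TAP transporter. It had 0, 1 and 0 reads in Trf1+/+ libraries and 0, 46 and 23 reads in Trf1flox/flox libraries, or 0, 50.3 and 15.8 normalized counts in the latter. It did not pass the filter on low values and was not tested, and its groups overlapped at 0. Tap1, its partner subunit, is not listed, and nor are Psmb9, a catalytic subunit of the immunoproteasome encoded beside it, and Nlrc5, the class I transactivator. Psmb8, the immunoproteasome subunit encoded between Tap1 and Tap2, had 0, 173 and 0 normalized counts across the Trf1+/+ libraries, against 33.5, 0 and 40.7 in Trf1flox/flox libraries. Each of these 2 genes was thus at 0 in at least 1 library of each group.

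Tapbp encodes tapasin, which bridges TAP and the empty heavy chain. It had 3.56, 761 and 177 normalized counts across the Trf1+/+ libraries, against 508, 669 and 412 in Trf1flox/flox libraries. The highest value of all was that of a Trf1+/+ library, and the library labelled Trf1+/+ replicate 1 had 4 reads. The log2 difference was 2.61 (SE 1.92, adjusted p = 0.996 from limma; exact permutation p = 0.4), and without that library it was 0.50. Of the Tapbp exons, 24.9% overlap the antisense gene Gm19412, and the library kit does not mark strand, so that reads of the pair cannot be told apart there.

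Erap1 encodes the aminopeptidase that trims peptides in the endoplasmic reticulum. It had 1.78, 48.9 and 0.985 normalized counts across the Trf1+/+ libraries (2, 59 and 1 reads), against 324, 1.09 and 154 in Trf1flox/flox libraries (377, 1 and 223 reads). Both groups thus hold a library with a single read. The values range from 0.985 to 48.9 within Trf1+/+ and from 1.09 to 324 within Trf1flox/flox. The log2 difference was 2.86 (SE 2.30, adjusted p = 0.996 from limma; exact permutation p = 0.3). Of the Erap1 exons, 11.5% overlap Cast, a listed gene on the opposite strand.

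All 6 tested members had a log2 difference above 0, with a median of 2.13. The median was 1.18 without the library labelled Trf1+/+ replicate 1, where B2m lay below 0, 1.10 with array weights, 1.05 with DESeq2 and 1.03 with edgeR. Over all tested genes 55.9% lay above 0 and the median was 0.20, and the median of all genes was 0.44 after scaling the libraries to a common upper quartile. Without the library labelled Trf1+/+ replicate 1, 48.9% of all tested genes lay above 0 and their median was -0.03. Relative to the median of all genes in the deposited scaling, B2m lay below it and the other 5 members above it. The members are not independent of each other, and 1 of the 6 had an interval that left out 0.

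**Figure D4:**
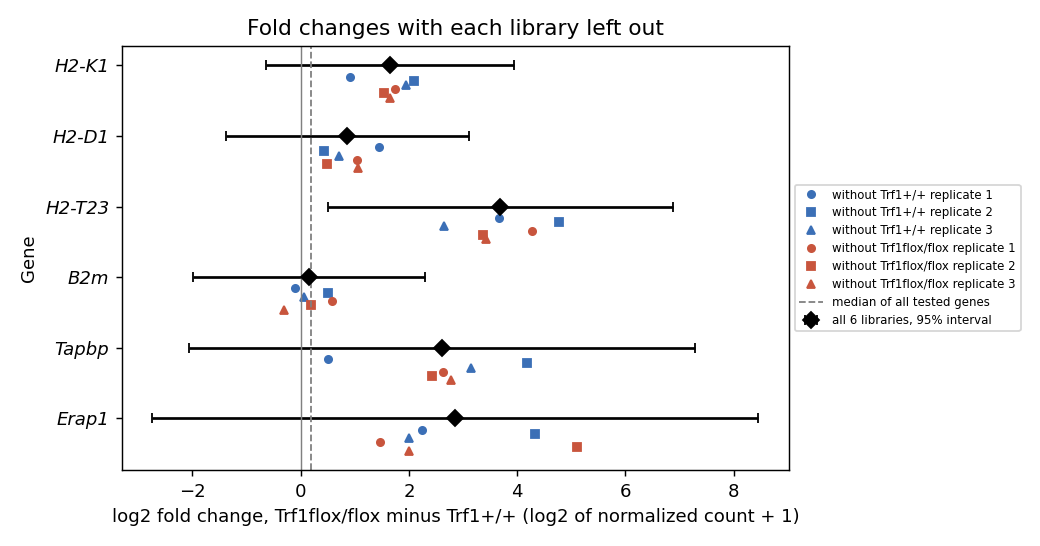
Difference between Trf1flox/flox and Trf1+/+ on the scale of log2(normalized count + 1) for the 6 tested members, with 95% intervals from limma, coloured points for the same difference with each library left out and a dashed line at the median of all tested genes (0.20). Only the interval of H2-T23 lies above 0. B2m moves from 0.15 to -0.11 without the library labelled Trf1+/+ replicate 1 and to -0.31 without Trf1flox/flox replicate 3.

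Per kb of exon, B2m had the highest mean level, with 1205 ± 571 in Trf1+/+ and 1415 ± 860 in Trf1flox/flox libraries (SD, n = 3 each). H2-D1 followed with 261 ± 202 and 421 ± 206, H2-K1 with 129 ± 81.8 and 328 ± 49.4, and Tapbp with 86.6 ± 109 and 146 ± 35.8. H2-T23 had 5.14 ± 6.56 and 43.2 ± 23.3, Erap1 2.37 ± 3.77 and 21.9 ± 22.2, and Tap2 0.0730 ± 0.127 and 5.83 ± 6.80. Within the Trf1+/+ libraries H2-D1, H2-K1 and Tapbp overlapped in range and were not told apart beyond their spread, and the same held for H2-T23 and Erap1. Within the Trf1flox/flox libraries the ranges of H2-D1 and H2-K1 overlapped, whereas every value of B2m lay above every value of both.

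The genes most like H2-K1 over the 6 libraries, by Pearson's r of the log2 values among 7176 genes, were Dnajb1, a heat shock co-chaperone (r = 0.997), Il6st, the gp130 receptor chain of the interleukin-6 family (0.996), and Ubr3, a ubiquitin ligase (0.995). Il6st had 0, 99.4 and 61.1 normalized counts across the Trf1+/+ libraries, against 317, 407 and 348 in Trf1flox/flox libraries. The genes most like B2m were Sec61g, a subunit of the translocon (0.991), AU022252 (0.972) and Rack1, a ribosome-bound scaffold (0.971). Among the members, H2-K1 was most like Tapbp (0.945), and its r with H2-D1 was -0.06. The library labelled Trf1+/+ replicate 1 held the lowest value of H2-K1 (108) and the second highest of H2-D1 (1269). The r of -0.06 therefore leans on that library and does not show that the 2 genes vary apart in the others. These values describe 6 points that share libraries and a group difference. H2-K1, Dnajb1, Il6st, Ubr3 and Tapbp each had their lowest value in the library labelled Trf1+/+ replicate 1, and no r was computed without it.

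The remaining steps of the pathway were described with lists of other genes, and none of their genes had an adjusted p under 0.05 in limma. Of 20 other class I and class I-like chains 6 are listed and 5 were tested, 2 with a difference above and 3 below 0, and a median of -0.18. Mr1, which presents vitamin B metabolites, had 440.0, 68.8 and 572 normalized counts across the Trf1+/+ libraries, against 153, 0 and 0.689 in Trf1flox/flox libraries, with overlap. Its log2 difference of -5.35 (SE 2.14) had an unadjusted p of 0.0457 and an adjusted p of 0.996 from limma. Azgp1, a class I-like glycoprotein that is secreted, had 0, 0 and 310.4 against 0, 228 and 306. The direction of Mr1 was opposite to that of all 6 tested members.

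All 12 partners of folding and loading in the endoplasmic reticulum were tested, 6 above and 6 below 0, with a median of 0.03. Calr, which encodes calreticulin, had 879, 1962 and 1997 normalized counts across the Trf1+/+ libraries, against 1850, 4119 and 2936 in Trf1flox/flox libraries. Pdia3, which encodes ERp57, had 3992, 4526 and 3818 against 3701, 3861 and 3008. Both overlapped between groups. Sec61a1, the channel of the translocon, did not overlap, with 2.67, 197 and 79.8 in Trf1+/+ and 796, 876 and 301 in Trf1flox/flox libraries (log2 difference 3.94, SE 1.63, adjusted p = 0.996 from limma). Tapbpl, a relative of tapasin, had 0, 119 and 0 against 254, 66.7 and 13.8.

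The proteolytic steps showed no common direction. Of 6 genes of the immunoproteasome and its PA28 activator 5 were tested, 4 above and 1 below 0 with a median of 0.76. Of the 4, Psme2 lay at 0.00068. Psmb8 lay at 1.02 although its mean was lower in Trf1flox/flox (24.7) than in Trf1+/+ libraries (57.7). Psmb10, the third inducible subunit, had 33.8, 292 and 15.8 normalized counts across the Trf1+/+ libraries, against 120.3, 150 and 160 in Trf1flox/flox libraries. The 3 constitutive catalytic subunits were all below 0 with a median of -0.37, and none had an unadjusted p under 0.05. Psmb7 had 1210.5, 427 and 1105 normalized counts across the Trf1+/+ libraries, against 508, 420 and 559 in Trf1flox/flox libraries, and Psmb5 had 2204, 892 and 674 against 658, 1146 and 814. Of the 6 tested cytosolic peptidases 3 were above and 3 below 0. Those with the largest differences were Nrd1, with 2889, 244 and 308 in Trf1+/+ against 241, 2.19 and 502 in Trf1flox/flox libraries, and Lnpep, with 1.78, 553 and 405 against 485, 432 and 419.

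Among regulators of class I genes 10 of 14 were tested, 5 above and 5 below 0 with a median of -0.40. Irf2, an interferon regulatory factor, had 709.9, 102 and 455 normalized counts across the Trf1+/+ libraries, against 291, 0 and 63.4 in Trf1flox/flox libraries. Rela, the p65 subunit of NF-κB, had 0, 16.6 and 0 against 280.1, 0 and 108. Both overlapped between groups. Irf1, a transcription factor induced by interferon, did not pass the filter on low values and is named after its values were seen. It had 34.7, 0.829 and 117 normalized counts across the Trf1+/+ libraries, against 0, 0 and 0.689 in Trf1flox/flox libraries. The 0.829 and the 0.689 are 1 read each, so the groups met at 1 read and were parted there by the size factors only.

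Interferon response genes were uneven. Of 32 genes 22 are listed and 12 were tested, 5 above and 7 below 0 with a median of -0.25. Stat2, a transcription factor of type I interferon signaling, had 0, 2.49 and 0 normalized counts across the Trf1+/+ libraries, against 81.6, 29.5 and 57.2 in Trf1flox/flox libraries (log2 difference 5.12, SE 0.93, unadjusted p = 0.00138, adjusted p = 0.187 from limma). Igtp, an interferon-inducible GTPase, had 28.5, 0 and 0 against 413, 224 and 192 (log2 difference 6.40, SE 1.52, unadjusted p = 0.00534, adjusted p = 0.426 from limma). Both genes did not overlap between groups, and of the 12 tested genes more lay below than above 0. Among genes that did not pass the filter, and named after their values were seen, Usp18, which removes ISG15 from proteins, had 961, 67.9 and 0.985 in Trf1+/+ and was at 0 in every Trf1flox/flox library. Ifnar2, a chain of the type I interferon receptor, had 0, 0.829 and 0 against 43.8, 1.09 and 79.2.

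The class II pathway, which presents peptides to CD4 T cells and is most active in immune cells, was described beside it. Of 13 genes 8 are listed and 6 were tested, 5 above and 1 below 0 with a median of 1.93. H2-Ab1, a class II beta chain, had 0.891, 39.8 and 79.8 normalized counts across the Trf1+/+ libraries, against 107, 362 and 752 in Trf1flox/flox libraries (log2 difference 4.07, SE 1.66, unadjusted p = 0.0490, adjusted p = 0.996 from limma). H2-DMb1, which helps load class II molecules, had 0, 1.66 and 114 against 35.2, 358 and 66.2. Leukocyte and macrophage markers were highest in a Trf1+/+ library (950.4 summed), whereas Trac was above 0 only in Trf1flox/flox libraries, and their part in the class I and class II values was not tested.

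**Figure D5:**
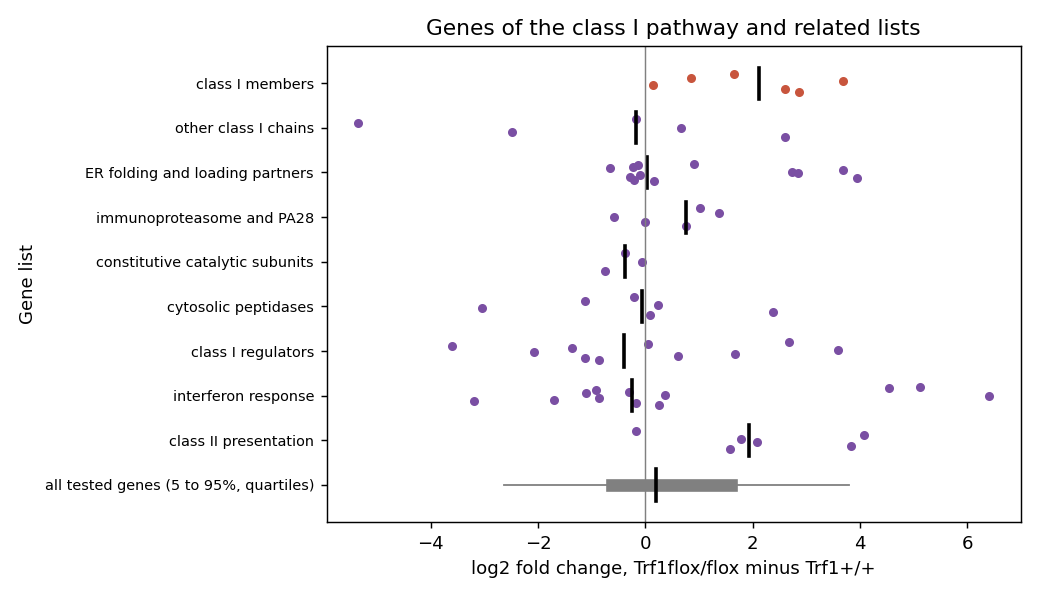
Difference between Trf1flox/flox and Trf1+/+ on the scale of log2(normalized count + 1) for every tested gene of the class I members and of each other list, with a bar at each median, and at the bottom the quartiles and the 5 to 95% range of all 9966 tested genes (median 0.20). The 6 members all lie above 0 with a median of 2.13 (1.18 without the library labelled Trf1+/+ replicate 1, where B2m lies below 0), whereas folding partners, peptidases, regulators and interferon response genes lie on both sides.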

How the data were processed

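Libraries were made from oligo(dT)-primed, template-switched and PCR-amplified cDNA, without strand information. Per the study's methods, the authors aligned reads with TopHat 2.0.10 and Bowtie 1.0.0 and counted them with HTSeq 0.6.1 on GENCODE genes of GRCm38, whereas the submitters' processing notes name GRCm39. The strand setting of the counting is not given in the sources used here. The deposited values are a signal, reads divided by 1 size factor per library, and 100% of them came out as whole reads (tolerance 1e-06 reads). Depth is given as reads on listed genes, and because PCR copies were not collapsed, depth covers counting error only.

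The 6 libraries were grouped by genotype label, and replicate numbers name libraries and pair no mice. Values of log2(normalized count + 1) were tested with limma 3.58.1 (eBayes without trend) over 9966 genes at 10 or more normalized counts in 3 or more libraries, with Benjamini-Hochberg adjustment, and single genes with an exact two-sided permutation test. The pseudocount makes the fold of low genes smaller, whereas 1 library with almost no reads can make a fold larger. The log2 difference of Tapbp was 2.61 with all libraries and 0.50 without the library labelled Trf1+/+ replicate 1. Levels per kb used the exon union of GENCODE vM21. The tests were checked on simulated data in which no library stood apart, so the check does not show how they behave on these libraries. Alternatives were other pseudocounts, filters and scalings, array weights, edgeR 4.0.16 and DESeq2 1.42.0 on the recovered reads, and each library left out. Limma with a trend and the recounts of overlap were chosen after seeing the data. Named were all members, and in each other list the genes with an unadjusted p under 0.05, those 2 with the largest difference, and Psmb8, Psmb9, Nlrc5, Calr and Pdia3. The members and lists were chosen with earlier results of these data known.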

Additional observations from a re-analysis of the deposited data

How the results depend on the processing

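H2-K1, H2-D1, H2-T23, Tapbp and Erap1 kept a log2 difference above 0 in all 16 alternatives run, and B2m in 14 of 16, with values from -0.31 to 0.57 over fits that leave out 1 library. Such fits gave 0.90 to 2.10 for H2-K1, 0.42 to 1.46 for H2-D1, 2.65 to 4.77 for H2-T23, 0.50 to 4.19 for Tapbp and 1.47 to 5.11 for Erap1. The median of the 6 members was 1.18 to 3.14 over these fits, lowest without the library labelled Trf1+/+ replicate 1. The lowest value of Tapbp was that without the library labelled Trf1+/+ replicate 1, and it was 0.66 with edgeR and 0.75 with DESeq2. No member passed an adjusted p of 0.05 under any of them. Over all genes limma and edgeR called 0 genes (454 and 196 at an unadjusted p under 0.05) and DESeq2 called 58, with Trac and no member among them, and the cause was not tested. Limma with a trend, chosen after seeing the data, also called 0 (312 unadjusted). H2-D1 did not overlap between groups with the upper quartile scaling, and with ranks within the library 1 member (H2-K1) in place of 2 did not overlap. With 3 libraries per group and adjustment over all tested genes, limma could have missed changes as large as those within the intervals given. The intervals are not adjusted for the number of genes. That of H2-T23 (0.51 to 6.88) left out 0, yet its adjusted p was 0.955 from limma. Tap2, Erap1 and H2-T23 had 3 reads or fewer in at least 1 library, where depth limits what can be said of their level.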
